A study of Mus musculus with 15 samples.

Results

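The PITX, T-box and LBX transcription factors examined here are encoded by 9 genes: Pitx1, Pitx3, Tbx1, Tbx2, Tbx3, Tbx4, Tbx5, Tbx15 and Lbx1. They were chosen by name, as regulators that give muscle and its surrounding tissue a place in the head, limb or trunk. For each of the 9 genes, H3K27ac peaks that overlapped its RefSeq span or the 50 kb on either side were taken, which gave 53 peaks of the 122375 in the list. A peak was assigned to the promoter where at least 1 bp lay within 2 kb of a curated RefSeq start site of the gene, then to the gene body, and otherwise to the flank. No peak lay in the windows of more than one of these genes.

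The study compared fusion-positive rhabdomyosarcoma, a sarcoma with features of skeletal muscle that depends on the fusion protein PAX3-FOXO1, between 2 mouse models by CUT&RUN, in which a tethered nuclease cuts out the DNA beside an antibody. The series has 15 libraries, and the peak list analyzed was taken as that of 1 of them, MCP H3K27ac replicate 5, because its peak names carry that library's number; no source says whether other MCP libraries were pooled into it. MCP tumors carried the driver Myf6-Cre together with the alleles Cdkn2a(Flox/Flox), R26-tdTom and Pax(3P3F/P3F), so that Cre made from the Myf6 locus, which is active in myogenic cells, deleted Cdkn2a, marked the cells and switched on the fusion. Live cells sorted from a digested tumor were used, and neither the age of the mouse nor the body region of its tumor is given in the labels. The same alleles with Tek-Cre define the TCP tumors, which were not analyzed here, so no value below compares tumor types and none has a replicate or a p-value.

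H3K27ac is a histone mark found at active promoters and enhancers. PITX factors are bicoid-type homeodomain proteins, T-box factors share a DNA-binding domain named after the mouse gene T, and LBX factors are homeodomain proteins related to the fly gene ladybird. In the embryo these genes are switched on in particular regions, and the muscle and connective tissue of a region depend on them: the pharyngeal arches for Tbx1, the hindlimb for Pitx1 and Tbx4, the forelimb for Tbx5, and the muscle precursors that migrate into the limb for Lbx1.

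The peaks were concentrated at one gene. Tbx15 had 37 of the 53 peaks (69.8%) and Pitx1 had 6, while Tbx1 had 4, Tbx4 had 3, Pitx3 had 2 and Tbx2 had 1. Tbx3, Tbx5 and Lbx1 had none. Only Tbx15, Pitx1 and Tbx1 had a peak at a promoter, and only Tbx15 and Pitx1 had one elsewhere in the gene body. With promoters of 1 kb, 2 genes had a promoter peak and Pitx1 was no longer among them, since its nearest peak summit lay 1.27 kb from the start site.

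The sequences around the summits of 6 peaks are shown because they are the strongest peak of Pitx1, the 3 strongest of Tbx15, the promoter peak of Tbx1 and the strongest peak beside Tbx4. Each is read from the RefSeq genome of build GRCm38.p6 (mm10) on the strand of its gene, and covers the summit and up to 100 bp on either side, cut at the ends of the peak. Capitals mark a match to one of 5 motifs searched on both strands: the T-box arm GGTGTGA (1 arm of the palindromic T-box site), the PITX site TAATCC, the E-box CAGCTG, a PAX homeodomain pair of TAAT and ATTA with 3 bases between them, and the AP-1 site TGANTCA.
Pitx1, chr13:55827913-55828113, minus strand: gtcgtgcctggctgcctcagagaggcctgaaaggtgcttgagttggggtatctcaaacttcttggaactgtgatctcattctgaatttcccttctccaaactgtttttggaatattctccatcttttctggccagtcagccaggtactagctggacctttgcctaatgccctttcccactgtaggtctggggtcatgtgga
Tbx15 peak 1, chr3:99249115-99249315, plus strand: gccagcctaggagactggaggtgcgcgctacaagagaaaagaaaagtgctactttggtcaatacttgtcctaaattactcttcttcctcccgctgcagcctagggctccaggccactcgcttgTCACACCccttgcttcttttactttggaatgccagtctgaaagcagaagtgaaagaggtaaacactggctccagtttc
Tbx15 peak 2, chr3:99255629-99255829, plus strand: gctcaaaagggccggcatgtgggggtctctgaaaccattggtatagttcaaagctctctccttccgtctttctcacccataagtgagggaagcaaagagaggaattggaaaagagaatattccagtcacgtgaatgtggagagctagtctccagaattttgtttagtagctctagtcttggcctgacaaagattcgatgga
Tbx15 peak 3, chr3:99264420-99264620, plus strand: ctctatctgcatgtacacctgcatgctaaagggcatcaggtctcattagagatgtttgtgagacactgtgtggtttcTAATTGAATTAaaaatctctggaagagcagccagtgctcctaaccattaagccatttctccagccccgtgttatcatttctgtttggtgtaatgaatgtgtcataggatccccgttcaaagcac
Tbx1 promoter peak, chr16:18587615-18587695, minus strand: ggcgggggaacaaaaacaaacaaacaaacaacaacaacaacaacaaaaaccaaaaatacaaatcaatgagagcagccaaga
Tbx4 flank peak, chr11:85924805-85925005, plus strand: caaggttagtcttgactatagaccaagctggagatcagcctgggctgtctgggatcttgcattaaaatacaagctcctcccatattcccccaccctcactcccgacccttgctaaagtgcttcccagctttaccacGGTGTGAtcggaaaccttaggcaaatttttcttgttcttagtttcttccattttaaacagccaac
The strongest Tbx15 peak and the Tbx4 peak each held a T-box arm, peak 3 of Tbx15 held the homeodomain pair, and the other 3 windows held none of the 5 motifs. A match is a description of letters, and binding at these places was not measured.

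**Figure D1:**
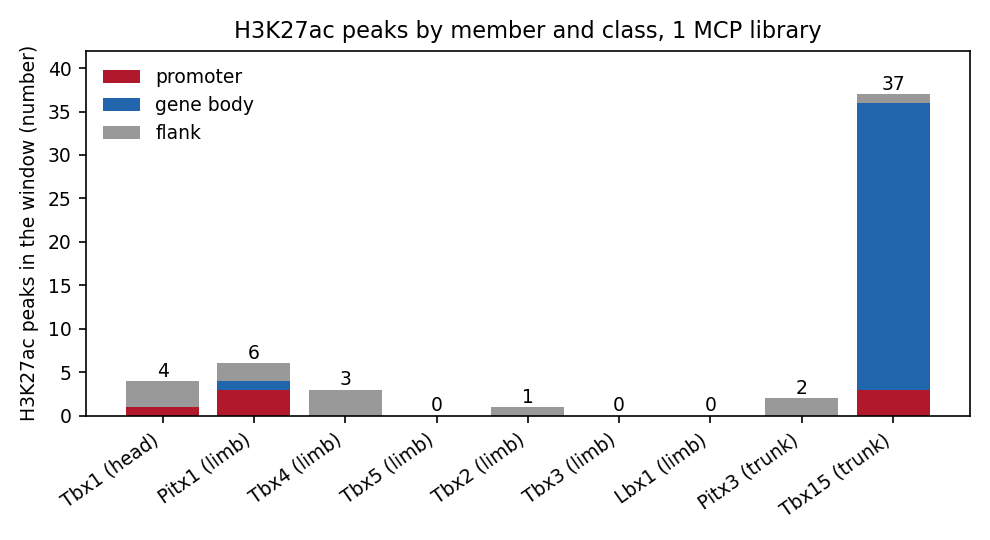
Number of H3K27ac peaks (vertical axis) in the span of each gene or 50 kb on either side, in 1 MCP library, with bars divided into promoter, gene body and flank peaks. Tbx15 has 37 peaks, 33 of them in the gene body as extended by a predicted transcript, and Tbx3, Tbx5 and Lbx1 have none.

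Over all 21000 protein-coding genes with a curated start site, 45.6% had a promoter peak, 33.2% had a peak in the gene body outside the promoter and 77.9% had any peak in the window. Among the 9 genes, 3 had a promoter peak (33.3%), 2 had a gene body peak (22.2%) and 6 had any peak (66.7%). With 9 genes each of these shares is at or somewhat below that of the background, and no test was made. The median gene had 8 peaks in its window (quartiles 1 and 17). Tbx15 lay far above this median and the other 8 genes below it.

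**Figure D2:**
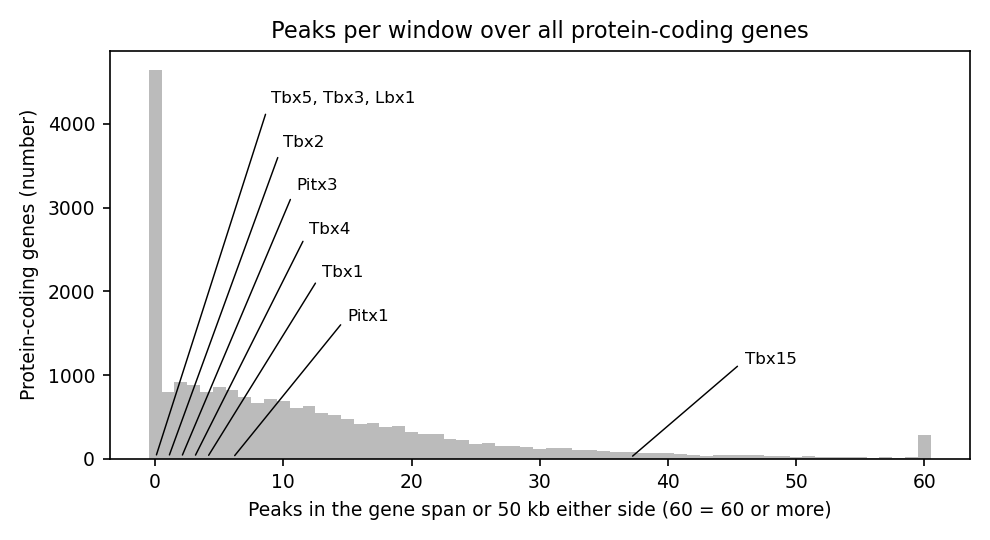
Distribution of the number of peaks per window (horizontal axis, values of 60 or more drawn at 60) over protein-coding genes (vertical axis, number of genes), with lines from the names of the 9 genes to their values. Only Tbx15, at 37 peaks, lies above the median of 8.

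Promoter CpG content was set beside these shares, because promoter peaks were commoner at CpG-rich promoters. Genes were ranked into 10 equal strata by observed over expected CpG within 500 bp of the start site. Where a gene had several curated start sites, the highest of their ratios was used. A promoter peak was found at 4.62% of genes in the lowest stratum and 80.5% in the highest. Summed over the strata of the 9 genes, these shares come to 4.90 genes with a promoter peak, against the 3 found. Tbx3 and Tbx1 both lay in the highest stratum, with ratios of 0.916 and 1.03. Tbx1 had a promoter peak and Tbx3 did not. Tbx2 was in stratum 8, where 71.0% of genes had a promoter peak, and it had none. Pitx1 and Tbx15 were in stratum 7 (66.5% of genes) with ratios of 0.730 and 0.759, and both had one. Pitx3 and Lbx1 were in stratum 5 (47.4%), Tbx4 in stratum 4 (26%) and Tbx5 in stratum 1, and none of these 4 had a promoter peak.

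Among the head regulators, Tbx1 is required for the pharyngeal arches and the jaw and neck muscles that form in them. The gene lies on chromosome 16 from 18580979 to 18590671 on the minus strand, with 3 curated start sites. Its promoter peak, 81 bp wide, was in an intron from 18587615 to 18587695, 0.714 kb upstream of the start site at 18586969. Its fold enrichment over the IgG background was 3.93, which rests on 8 fragments over the summit. The 95% counting interval of the fold, with the background held at its estimate, was 1.97 to 7.27. Only 1 fragment fewer, 7, was the lowest number of any peak in the list, so this peak was close to the limit of what was called, and it was lost with a stricter limit of 5 on the -log10 q.

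The other 3 peaks of the Tbx1 window lay together 31.7 to 32.6 kb downstream of the same start site, in an intron of Gnb1l. Their fold enrichments were 6.08, 4.36 and 10.6, from 13, 9 and 24 fragments. The strongest, from 18554794 to 18555322, had an interval of 6.98 to 15.6. Thus the strongest signal of the window was in the body of a neighboring gene, and to which gene it belongs was not tested.

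The limb regulators were sparse apart from Pitx1. The 6 genes had 10 peaks in 702 kb of window, or 1.43 per 100 kb, against 4.49 per 100 kb over the whole list. Their median was 0.5 peaks per window.

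Pitx1 sets the identity of the hindlimb and is also active in the first pharyngeal arch and the pituitary. It lies on chromosome 13 from 55825044 to 55836190 on the minus strand, with 1 curated start site at 55831425. All of its 6 peaks lay within 7.21 kb downstream of that site, and none lay upstream or at a start site of another gene. One peak stood out, from 55826852 to 55829706, with a width of 2855 bp. Its fold enrichment was 16.8 (interval 12.3 to 22.5) from 43 fragments, the most of the 53 peaks, over a background of 1.33 fragments. The fold is lower than the plain ratio of these, since fragments were scaled and a constant was added to both terms. Only 2.79% of genes had as strong a peak in their window.

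The summit of this peak was in an intron, 3.41 kb downstream of the start site, so it counted as a promoter peak through its edge rather than its summit. The other promoter peaks of Pitx1 were 98 bp and 89 bp wide, with summits 1.48 and 1.27 kb downstream of the start site and folds of 5.20 and 4.45. Next to the strong peak, a gene body peak of 452 bp had its summit in a coding exon and a fold of 6.51 (interval 3.78 to 10.6). The 2 flank peaks lay just beyond the end of the gene, with folds of 3.93 and 6.08. Peaks covered 31.3% of the Pitx1 span, compared with 14.9% at Tbx15 and 0.836% at Tbx1. The Pitx1 span used runs to 55836190, the start of a predicted transcript, rather than to the curated start site at 55831425.

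Tbx4 and Tbx5 are the T-box genes of the hindlimb and forelimb buds, and Tbx5 also acts in the heart. Tbx4 lies on chromosome 11 from 85886367 to 85916097 and had no peak in its span. Its 3 peaks were intergenic, 28.1 to 29.4 kb downstream of its second curated start site, with folds of 5.94, 4.91 and 4.71 from 15, 20 and 15 fragments. Tbx5, on chromosome 5 from 119796514 to 119885220, had none, although its window of 189 kb was the second longest of the 9.

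Tbx2 and Tbx3 encode T-box repressors that act in the limb bud, the heart and other tissues. Tbx2 lies beside Tbx4, from 85832615 to 85841948 on chromosome 11. Its one peak was 22.4 kb upstream, in an intron shared by Bcas3 and 2610027K06Rik. This peak was 78 bp wide with a fold of 3.50 from 7 fragments, the lowest number in the list. Chromosome 11 had 7.94 peaks per 100 kb, the Tbx2 window 0.915 and the Tbx4 window 2.31. Tbx3, on chromosome 5 from 119670534 to 119684724, had no peak.

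Tbx3 and Tbx5 shared a single stretch without peaks of 843 kb, from 119273512 to 120116597. Stretches at least as long surrounded a start site of 13.4% of protein-coding genes, and the median gene lay in one of 64.4 kb. Lbx1, on chromosome 19 from 45232684 to 45236841, is needed for muscle precursors to migrate into the limb and is activated downstream of Pax3 in the embryo. It lay in a stretch of 289 kb without peaks, as long as or shorter than that of 25.5% of genes. The summit nearest to its start site was 128 kb away, in an intron of Btrc. Tbx2 and Tbx4 also shared one stretch, of 115 kb. Peaks are numbered along the genome, and the list lacks 584 of 122959 numbers, but no missing number fell within the 9 windows.

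The group called trunk here holds Tbx15, which acts in the mesenchyme and muscle of the trunk and limbs, and Pitx3, which is active in differentiating skeletal muscle throughout the body as well as in the lens and midbrain. Neither is limited to the trunk, and the 3 groups were made from textbook roles. Together they had 39 peaks in 327 kb, or 11.9 per 100 kb, and 37 of the 39 belonged to Tbx15. The head gene Tbx1 had 3.65 per 100 kb. Without Tbx15 the trunk value was that of Pitx3 alone, 1.77 per 100 kb, so the place of the trunk group above the other groups rests on Tbx15. With windows of 20 kb the head and limb groups changed order, at 2.01 and 2.27 per 100 kb.

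Pitx3 lies on chromosome 19 from 46135281 to 46148325 on the minus strand. Both of its peaks were 4.60 and 4.90 kb upstream of its start site, within 2 kb of a start site of Gbf1, a neighbor on the opposite strand. Their folds were 4.71 and 4.36, from 10 and 9 fragments. No peak lay in the Pitx3 span.

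**Figure D3:**
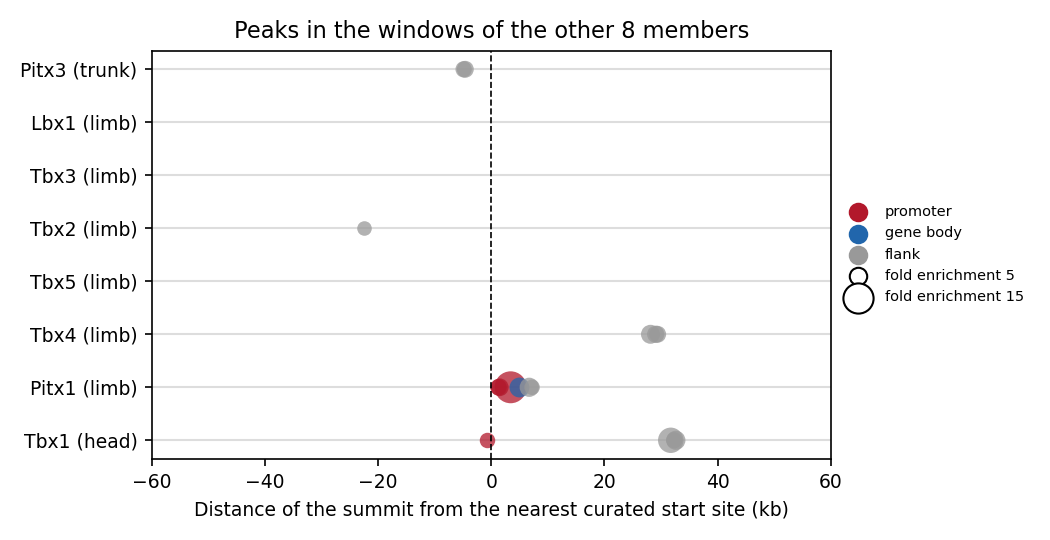
Position of each peak summit in kb from the nearest curated start site of the gene (horizontal axis, positive values downstream) for the 8 genes other than Tbx15 (vertical axis), with point area proportional to fold enrichment. The Pitx1 peaks lie together downstream of its start site, with the largest at a fold of 16.8, whereas those of Tbx1, Tbx2, Tbx4 and Pitx3 lie mostly outside the gene.

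Tbx15 lies on chromosome 3 from 99240348 to 99354260, and its start is set by a predicted transcript. Its only curated start site is at 99253760. As many peaks as its 37 were found at 5.43% of genes, and as many gene body peaks as its 33 at 1.87%. Of the 36 peak summits in the span, 8 lay upstream of the curated start site, some of them in promoter peaks. The gene body count therefore depends in part on the predicted transcript. Its window was long, and its density of 17.3 per 100 kb was above that of 85.6% of genes, against 4.23 for chromosome 3. The peaks covered 17048 bp, an amount reached by 2.15% of genes.

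The peaks of Tbx15 fell into 3 parts. The first held 24 peaks from 13.0 kb upstream to 14.5 kb downstream of the curated start site, with a median fold of 6.21 and a median width of 346 bp. All 5 Tbx15 peaks with a fold above 10 were in this part, and their folds ranged from 12.8 to 16.0, with 29 to 36 fragments and widths of 917 to 2056 bp. The second held 5 weak peaks from 39.3 to 62.6 kb downstream, none with more than 9 fragments or a fold above 4.36. The third held 7 peaks from 85.2 to 94.8 kb downstream, with a median fold of 4.79 and a highest of 7.80. A last peak lay 42.8 kb upstream, in an intron of Wars2, with a fold of 5.22.

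Around the start site itself the pattern was a gap between strong peaks. No peak covered the 0.959 kb from 99253188 to 99254146, which hold the start site. On its upstream side were promoter peaks with folds of 13.0 (interval 8.85 to 18.4) and 7.37 (4.42 to 11.7). On its downstream side was a promoter peak of 2056 bp with a fold of 13.9 (9.72 to 19.4) from 33 fragments, with its summit in an intron. The strongest peak of the locus, from 99248745 to 99250139, lay 4.55 kb upstream of the curated start site, with a fold of 16.0 (11.3 to 21.9) from 36 fragments. It counted as gene body only because the predicted transcript starts farther upstream. The folds of the 5 strongest peaks lay within the intervals of one another, so their order is not resolved at this depth.

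Peaks were also joined into clusters, across gaps of up to 12.5 kb and without those wholly within 1 kb of a start site. Ranked by the sum of fold times width, the cluster from 99240758 to 99268288 over Tbx15 was number 138 of 20840, or within the highest 0.662%. It spanned 27.5 kb and held 23 peaks. The Pitx1 cluster, of 6.11 kb and 6 peaks, ranked 859 (4.12%). The clusters nearest Tbx1 and Tbx4 ranked 7333 and 7776 and overlapped neither gene. The ranking was added after the peaks had been seen.

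**Figure D4:**
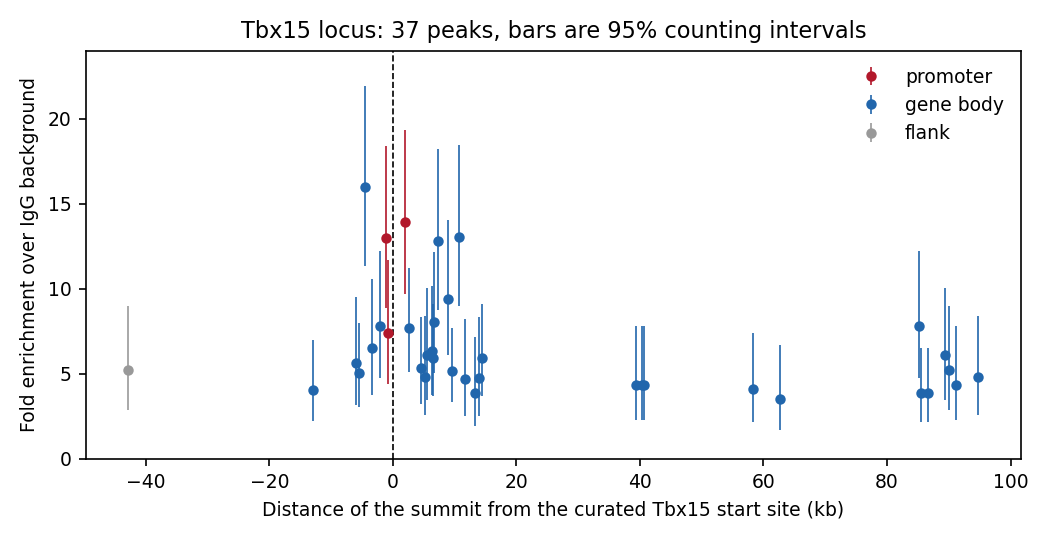
Fold enrichment over the IgG background (vertical axis) of the 37 peaks at Tbx15 by the distance of their summit from the curated start site in kb (horizontal axis, dashed line at 0), colored by class, with bars for the 95% counting interval of the fragments over the summit. The peaks with a fold above 10 lie between 4.55 kb upstream and 10.8 kb downstream of the start site.

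Over the 53 peaks, fold and width differed by class. Promoter peaks had a median fold of 7.37 (7 peaks, range 3.93 to 16.8) and a median width of 333 bp. Gene body peaks had 5.28 and 202 bp (34 peaks), and flank peaks 4.81 and 105 bp (12 peaks). In the whole list the medians were 5.49 and 183 bp for peaks at a promoter and 5.11 and 159 bp for the others. The median of the 53 peaks was 5.22, the same as that of the list, and their median fragment number of 13 was also the same. Above a fold of 10 were 7 of the 53 (13.2%), against 4.32% of the list. These were the 5 at Tbx15 and 1 each at Pitx1 and Tbx1. Tbx15 supplied 33 of the 34 gene body peaks, 3 of the 7 promoter peaks and 1 of the 12 flank peaks. Another 3 promoter peaks were those of Pitx1. The class medians thus also differ in the genes behind them, and the 2 cannot be told apart.

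Base composition was close to that of the list. The median GC content within 100 bp of the summit was 47.3% over the 53 peaks and 45.8% over all peaks, and the 6 Pitx1 peaks had 54.98%. Motif shares were compared over the same windows. The E-box was in 5 of 53 windows (9.43%) and in 10.01% of all peaks, and the PITX site in 4 (7.55%) and 7.76%. The T-box arm was in 2 (3.77%) and 3.07% of all peaks, and AP-1 in 2 (3.77%) and 8.05%. The homeodomain pair was in 1 (1.89%), the Tbx15 peak shown above, and in 0.436% of all peaks. The Wilson 95% interval of each share held that of the list, for example 1.04 to 12.8% for AP-1. The differences in these windows, the largest of them for AP-1 and the homeodomain pair, were therefore not resolved with this number of peaks. With 50 bp on either side of the summit, the pair was still in 1 (1.89%, interval 0.334 to 9.94%), against 0.199% of all peaks. That interval did not hold the share of the list, but it rests on 1 peak. These intervals treat the 53 peaks as independent draws, although 37 of them were at Tbx15, so they do not measure the spread between genes.

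To set the 9 genes beside others of the same regions, wider lists of limb and trunk regulators were used. Of the 11 limb genes, which added Meox2, Hand2, Lmx1b, Shox2 and Msx1, only Pitx1 and Msx1 had a promoter peak. Msx1, a homeodomain repressor of the limb bud, had 16 peaks, 3 at promoters with a strongest fold of 6.94. Hand2, a basic helix-loop-helix factor that patterns the limb, had 7 peaks, all in the flank.

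Of the 11 trunk genes, which added Tbx6, Tbx18, Tcf15, Meox1, Uncx, Pax1, Nkx3-2, Zic1 and En1, Tbx15 and Tbx6 had a promoter peak. Tbx6, needed for the paraxial mesoderm, had 11 peaks, 10 of them in the flank, and its promoter peak had a fold of 4.36. Zic1 had no promoter peak but 1 gene body peak. Promoter peaks were thus found at 2 of 11 limb and 2 of 11 trunk genes, against 6.02 and 6.63 by the CpG strata. Densities were 2.63 and 4.26 per 100 kb, with 16 of 36 limb peaks at Msx1 and 37 of 56 trunk peaks at Tbx15. The median was 1 peak per window in both lists.

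**Figure D5:**
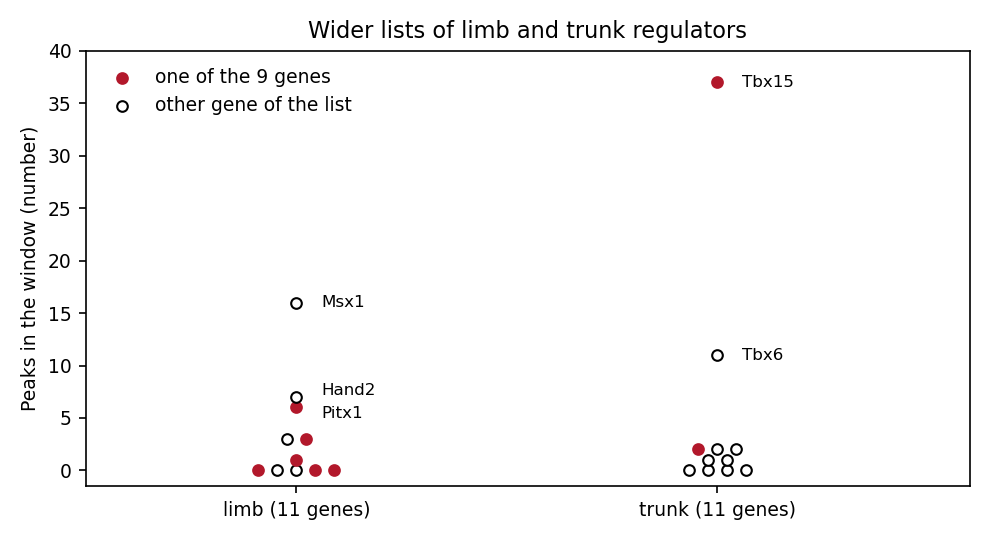
Number of H3K27ac peaks per window (vertical axis) for each gene of the wider limb and trunk lists (horizontal axis), with filled points for the 9 genes and open points for the others. In each list 1 gene lies well above the rest, Msx1 with 16 peaks and Tbx15 with 37.

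Counts were also made at 12 further genes of the T-box and LBX families, namely Tbx6, Tbx10, Tbx18, Tbx19, Tbx20, Tbx21, Tbx22, T, Tbr1, Eomes, Mga and Lbx2. Of these 12, Tbx6 and Mga had a promoter peak and 8 had any peak in the window. None of the 12 had a peak elsewhere in its gene body. The shares, 16.7% with a promoter peak, 66.7% with any and 0% with a gene body peak, stand beside 45.6%, 77.9% and 33.2% of all genes, and the CpG strata of the 12 gave 4.94 genes with a promoter peak. Mga, a large T-box protein of the MAX network, had a promoter fold of 6.74. Lbx2, the paralog of Lbx1, had 22 peaks in its window, all in the flank, while Lbx1 had none. Tbx18, Tbx20, Tbx22 and T had no peak in the window.

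Markers of the cells in such a tumor were read in the same way, although the cells had been sorted as live tumor cells before the assay. Of 14 myogenic markers, only Pax3 and Myf6 had a promoter peak, against 4.48 by the CpG strata, and only Pax3 had a gene body peak. In these mice Pax3 carries the fusion allele and Myf6 drives Cre, and whether this bears on their peaks was not tested. Of the 14, 11 had a peak in the window, while Myog, Pax7 and Mymk had none. Of 8 endothelial markers, 0 had a promoter peak (2.02 by the strata), 4 had a gene body peak (50%, against 33.2% of all genes) and 7 had a peak in the window. Of 6 immune markers, 1 (Cd68) had a promoter peak (0.644 by the strata), 0 had a gene body peak and 5 had a peak in the window. Of 6 fibroblast markers, Pdgfra and Col3a1 had a promoter peak (1.48 by the strata), 1 had a gene body peak and 4 had a peak in the window. Shares with a peak in the window were 78.6% (myogenic), 87.5% (endothelial), 83.3% (immune) and 66.7% (fibroblast), beside 77.9% of all genes. Shares with a gene body peak were 7.14%, 50%, 0% and 16.7% in the same order, beside 33.2%. In a library made from many cells, a mark in a few of them and a weak mark in all cannot be told apart.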

How the data were processed

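Per the methods of the study, the authors used bowtie to align paired reads to mm10, discarded problematic regions and compared each library with its IgG control to call peaks. The methods name MACS1.4, while the submitters' processing notes name BWA, SAMtools and MACS2, and the list is named for MACS2. The deposited list gives, for each peak, a fold enrichment (a ratio to local IgG background at the summit), a -log10 p, a -log10 q, and a score equal to the whole part of 10 times the -log10 q in 100% of peaks. The largest q was 0.0471. The list has no read depth. Its peak names carry the library number of MCP H3K27ac replicate 5 and of no other sample.

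Fragments over each summit were solved from fold and p with 1 scale (0.885) and a lowest background of 1.05 fragments. The fold was taken as the scaled fragment number plus 1, divided by the background plus 1. It is therefore below the plain ratio of fragments to background. A single whole number reproduced both values for 99.9% of peaks. The -log10 p was matched within 0.001, or within a proportionally larger limit where it was high. With the scale 3% off, checked on a subset of peaks, no whole number did. Exact Poisson 95% intervals cover counting error only. Genes and start sites (31603, from curated transcripts) were from RefSeq on GRCm38.p6, whose chromosome lengths fit the list. Counts were made in Python 3.11.15 with scipy 1.17.1 and tested on simulated data. The 9 genes and all lists were chosen with earlier results of these data known. The text names the 9 genes and, of the other lists, those with a promoter peak or the most peaks; Hand2, Zic1, Lbx2 and the genes without peaks were named after their values were seen. The clusters, the stretches without peaks, the CpG strata and the spread over parts of Tbx15 were also added then. One planned list of other regulators, and part of another, are not reported here. Alternatives changed the peaks kept, the window, the promoter width, the start sites and the length searched for motifs.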

Additional observations from a re-analysis of the deposited data

How the results depend on the processing

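No paired analysis was possible because a single peak list, from 1 library, was analyzed. Tbx3, Tbx5 and Lbx1 had no peak under any setting, up to 100 kb either side, and Tbx15 had the most under each setting that kept it. A limit of 5 on the -log10 q left 29 peaks in the windows of the 9 genes, and densities of 6.42 per 100 kb for the trunk members and 1.46 and 2.36 for the wider limb and trunk lists, and 1 of the 12 further family genes with a promoter peak. The 25% of peaks with the highest -log10 q left 15 peaks, 13 of them at Tbx15, 1 gene with a gene body peak, and again 1 of the 12 family genes with a promoter peak. Densities per 100 kb were then 0.912, 0.143 and 3.98 for the head, limb and trunk members, and 0.511 and 1.52 for the limb and trunk lists, all lower because fewer peaks were kept.

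Windows of 20 kb gave 18.4 for the trunk members and 4.05 and 7.32 for the limb and trunk lists. Leaving out peaks at start sites of other genes gave 3.19 for the trunk list. Promoters of 5 kb left 1 of the 9 genes with a gene body peak. Without Tbx15, chosen after seeing the data, 16 peaks remained, with 1.77 for the trunk members and 1.72 for the trunk list. That is below the limb list, which kept its own top gene, Msx1, with 16 of its 36 peaks. The order of the 2 lists without both genes was not computed. The other 66 of 87 group and list values stayed within 1.5 times for counts, or within their exact Poisson or Wilson interval. Of 80 counts for single genes, 17 moved by more. Both tallies include values that a setting could not change, such as limb values without Tbx15. The intervals are also wide: with windows of 20 kb the head group kept 1 of its 4 peaks and still counted as unchanged. With windows of 100 kb, Pitx1 had 13 peaks, Pitx3 and Tbx1 10 each and Tbx2 4, and among the 25% of peaks with the highest -log10 q, Pitx1 and Tbx1 had 1 each. Depth limits what can be seen: the median peak had 13 fragments, and a mark below 7 fragments over a position would not be listed. That limit is for the lowest background, which 47.0% of the list had, and a higher background raises it.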
